A study of Mus musculus with 22 samples.

Results

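Erythroid lineage and haem genes were examined in stem cells sorted from cultured mouse fetal liver. The set is a list of 35 named genes: regulators, receptors and iron carriers, haem enzymes, surface and membrane skeleton proteins, carbonic anhydrases, embryonic globins and a few other erythroid genes. Of these, 32 were measured among 22180 genes. Alas2, the erythroid enzyme of the first step of haem synthesis, shares its probe with Apex2 and was left out. Epb41, a membrane skeleton protein, and Ahsp, a chaperone of alpha-haemoglobin, had no probe under their own symbols here. A gene with several probes of its own was read from the brightest on average. The rule that lists the genes uses no measured value, but the list was chosen with earlier results of these data known.

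The arrays hold wild-type C57Bl/6J cells of stage E14.5. Cultures of liver cells were grown over OP9-DL1, a stromal line that presents the Notch ligand Dll1, and every culture of every group had this stroma. The sorted population was SLAM LSK, a gate on Kit and Sca-1 that leaves out cells with lineage markers and adds SLAM family receptors. It was taken after 10 h with 1 µM gamma-secretase inhibitor (GSI; 4 arrays), after 10 h with DMSO (4 arrays), after 4 h with 1 µM GSI (7 arrays) or after 4 h with DMSO (7 arrays). GSI blocks the enzyme that frees the active part of Notch receptors, and DMSO is its solvent. Each GSI culture has a DMSO partner, which gives 4 pairs at 10 h and 7 at 4 h. The labels do not say how many embryos entered a culture, nor that the stromal cells were absent from the sort.

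Red cells arise in the fetal liver from stem cells through erythroid progenitors that depend on erythropoietin. GATA1, with its cofactor FOG1, and KLF1 switch on the genes of haem synthesis, iron uptake, globin and the red cell membrane. Haem is built by a chain of enzymes shared between mitochondria and cytosol, and ferrochelatase closes the chain by inserting iron. Embryonic globins are made mainly by the primitive red cells of the yolk sac, which circulate in the embryo at this stage. A stem cell gate is meant to hold cells upstream of all this. Which cells of the sort gave the erythroid signal below was not tested.

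Promoter sequences are shown for 5 members. Gata1, Epor, Rhag and Rhd are among the 10 members that were higher at 10 h than at 4 h in both treatments under 3 normalizations. Trim10 was lower with GSI than with DMSO in every pair. Each sequence is the 250 bases before a transcript start in RefSeq, build GRCm38.p6, written 5′ to 3′ along the gene. Capitals mark GATAA, the core letters bound by GATA factors, or CCNCNCCC, the letters read by KLF1 and related factors, each on either strand. The windows lie at chrX:7967911-7968160 on the minus strand for Gata1, chr9:21963577-21963826 on the minus strand for Epor, chr17:40810899-40811148 on the plus strand for Rhag, chr4:134864286-134864535 on the plus strand for Rhd and chr17:36869324-36869573 on the plus strand for Trim10.
Gata1: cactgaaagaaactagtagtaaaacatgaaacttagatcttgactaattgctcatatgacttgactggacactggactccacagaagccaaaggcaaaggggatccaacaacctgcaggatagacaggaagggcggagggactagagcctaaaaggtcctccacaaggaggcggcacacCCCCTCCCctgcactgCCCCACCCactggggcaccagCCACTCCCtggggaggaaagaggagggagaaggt
Epor: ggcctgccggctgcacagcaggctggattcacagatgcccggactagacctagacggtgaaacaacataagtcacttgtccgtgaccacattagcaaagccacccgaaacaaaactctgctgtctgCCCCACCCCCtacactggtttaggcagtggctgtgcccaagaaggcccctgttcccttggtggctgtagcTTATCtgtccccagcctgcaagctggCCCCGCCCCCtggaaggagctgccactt
Rhag: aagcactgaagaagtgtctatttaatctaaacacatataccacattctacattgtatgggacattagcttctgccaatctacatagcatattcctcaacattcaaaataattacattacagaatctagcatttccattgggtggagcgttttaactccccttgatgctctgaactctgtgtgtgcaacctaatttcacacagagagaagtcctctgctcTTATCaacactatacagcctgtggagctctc
Rhd: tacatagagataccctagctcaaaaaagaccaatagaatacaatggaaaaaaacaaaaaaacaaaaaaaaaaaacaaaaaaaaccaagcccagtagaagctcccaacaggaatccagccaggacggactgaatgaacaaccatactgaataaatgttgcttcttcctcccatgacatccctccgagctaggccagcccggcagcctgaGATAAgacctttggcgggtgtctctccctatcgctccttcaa
Trim10: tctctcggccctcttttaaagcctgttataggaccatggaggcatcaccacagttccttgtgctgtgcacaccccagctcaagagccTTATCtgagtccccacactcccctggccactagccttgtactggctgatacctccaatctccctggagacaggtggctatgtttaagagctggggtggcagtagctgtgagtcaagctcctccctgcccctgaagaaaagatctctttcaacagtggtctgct

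Rhag holds 1 GATAA on the reverse strand that begins at position -31 from the start, and Rhd holds 1 on the forward strand that begins at position -42. Epor holds 1 GATAA on the reverse strand at position -54 and 4 CCNCNCCC matches, which overlap each other where C runs are long. Trim10 holds 1 GATAA, on the reverse strand at position -163. Gata1 holds 3 CCNCNCCC matches and no GATAA in this window. RefSeq lists 28 such windows for 25 of the members, of which 15 (53.6%) hold a GATAA, against 22.6% of all 32851 windows of this length. CCNCNCCC is held by 16 of the 28 (57.1%), against 45.9% of all windows, and 5 (17.9%) hold both, those of Epor, Gfi1b, Hba-x, Hemgn and Icam4, against 6.9% of all windows. Of the 10 members higher at 10 h in both treatments under 3 normalizations, 8 had a window. A GATAA was held by 5 of these 8, and by 15 of all 25 members with a window. CCNCNCCC was held by 5 of the 8, and by 14 of the 25. All are matches of letters, not measured binding.

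The deposited values are log2 expression, with array medians over all 41345 probes of 4.45 to 4.52 at 10 h and 5.03 to 5.12 at 4 h. A level below is a deposited log2 value of the gene's own probe, a change is a log2 difference with its standard error, and no level is set against that of another gene. Detection calls were not used here, so signal cannot be told from background for dim probes; precision is limited by the number of arrays. Hes1, a classical Notch target that encodes a repressor, was lower with GSI by a difference of -1.36 ± 0.12 at 10 h (limma adjusted p = 4.7e-05) and by a difference of -0.97 ± 0.088 at 4 h (limma adjusted p = 2.0e-04). The mean of the 9 measured stem cell markers (Kit, Procr, Hlf, Mecom and others) was 7.64 to 8.09 in GSI and 7.08 to 7.65 in DMSO at 10 h. It was 7.46 to 8.80 in GSI and 7.36 to 8.62 in DMSO at 4 h, which lies above the array medians in every group.

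The erythroid genes varied together from array to array within a group. In GSI at 10 h, replicate 1 was the highest array for 19 of the 32 genes (and for 25.4% of all genes) and replicate 4 the lowest for 19. In DMSO at 10 h, the same replicates were highest for 21 (24.8% of all genes) and lowest for 25. In GSI at 4 h, replicate 7 was highest for 22 (10.8% of all genes) and replicate 6 lowest for 25. In DMSO at 4 h, replicate 7 was highest for 17 (8.9% of all genes), replicate 4 for 13 (11.4%), and replicate 6 lowest for 19. Replicate 6 at 4 h was also the lowest array for 21.9% of all genes in GSI and 22.6% in DMSO, and replicate 4 at 10 h for 26.5% in GSI and 24.9% in DMSO. The median SD of an erythroid gene was 0.27 in GSI at 10 h, 0.50 in DMSO at 10 h, 0.54 in GSI at 4 h and 0.62 in DMSO at 4 h. For all genes it was 0.17, 0.22, 0.19 and 0.19 in the same groups. In a bulk sample, fewer erythroid cells in the sort and less erythroid RNA per cell cannot be told apart.

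**Figure D1:**
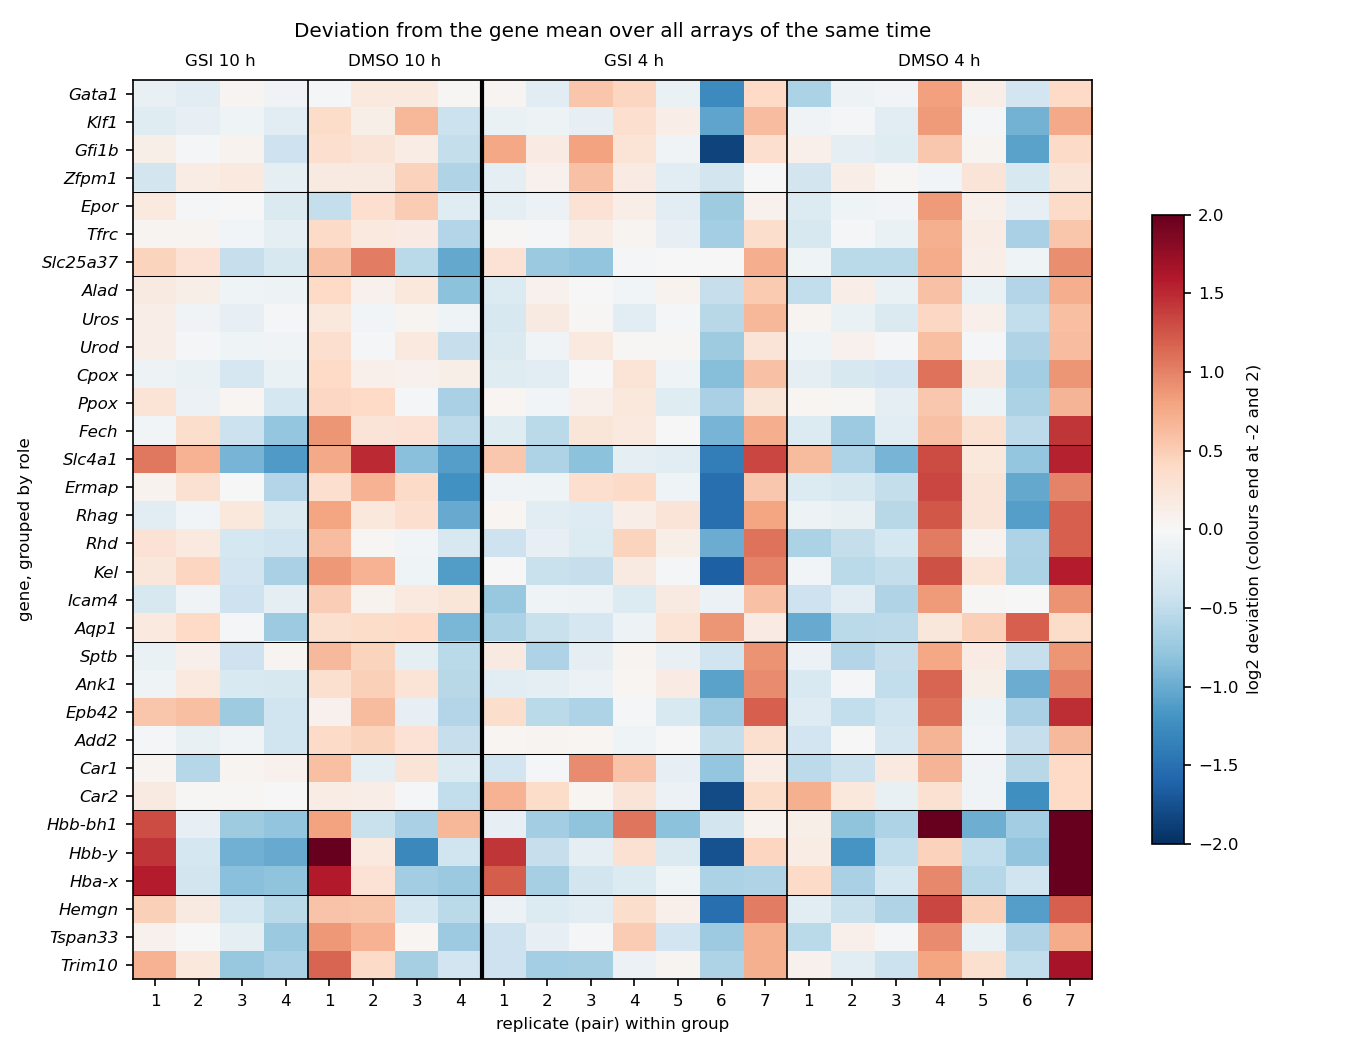
Colours give the log2 deviation of each of the 32 genes (rows, grouped by role) from its mean over all arrays of the same time, for each array (columns, by group and replicate). At 4 h the columns of GSI and DMSO replicate 6 are mostly low and those of replicate 7 mostly high, and replicate 4 is lower in GSI than in DMSO for 31 of the 32 genes.

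The comparison of GSI with DMSO asks whether blocking gamma-secretase changes erythroid gene expression in these cells. At 10 h the erythroid genes were slightly lower with GSI in 3 of 4 pairs and on average, and none of them passed the test. Of the 32, 0 had a limma adjusted p under 0.05, as against 148 of all 22180 genes (0.667%), and 5 had an unadjusted p under 0.05 (Klf1, Cpox, Fech, Icam4 and Tspan33), against 14.1% of all genes. The difference was below 0 for 29 of 32, against 53.8% of all genes, and its median was -0.16 (SD 0.20 between the pair medians), against -0.014 over all genes. The median was -0.16 for the 4 regulators, -0.064 for the 3 receptor and iron uptake genes, -0.068 for the 6 haem enzymes, -0.16 for the 7 surface proteins, -0.23 for the 4 membrane skeleton genes, -0.039 for the 2 carbonic anhydrases, -0.21 for the 3 embryonic globins and -0.25 for the 3 other genes (Hemgn, Tspan33 and Trim10).

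Among the regulators, Klf1, the erythroid Krüppel-like factor, had levels of 7.49, 7.57, 7.64 and 7.50 in GSI at 10 h, against 8.10, 7.85, 8.39 and 7.29 in DMSO. The GSI arrays lay close together, and the DMSO arrays reached on both sides of them. The difference was -0.36 ± 0.14 (limma adjusted p = 0.253). Gata1, the master regulator of the lineage, had 7.62, 7.57, 7.83 and 7.70 in GSI and 7.75, 7.96, 7.96 and 7.79 in DMSO. It was lower with GSI in all 4 pairs, but the groups overlapped and the difference was -0.19 ± 0.19 (limma adjusted p = 0.712). Gfi1b, a repressor needed for erythroid and megakaryocyte maturation, differed by -0.13 ± 0.20, and Zfpm1, which encodes FOG1, by -0.12 ± 0.16.

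Receptor and iron uptake genes had mean differences near 0 at 10 h. The difference was -0.064 ± 0.18 for Epor, the erythropoietin receptor, -0.071 ± 0.14 for Tfrc, the transferrin receptor, and -0.026 ± 0.18 for Slc25a37, the mitochondrial iron importer mitoferrin. Among the haem enzymes, Cpox, coproporphyrinogen oxidase, had 8.38, 8.35, 8.14 and 8.36 in GSI at 10 h, against 8.88, 8.58, 8.56 and 8.60 in DMSO. Cpox was lower with GSI in all 4 pairs, as were 8.20% of all genes, and the difference was -0.35 ± 0.14 (limma adjusted p = 0.265). Fech, ferrochelatase, had 6.99, 7.40, 6.61 and 6.27 in GSI and 7.92, 7.30, 7.33 and 6.51 in DMSO. Its groups overlapped, pair 2 was slightly higher with GSI, and the difference was -0.45 ± 0.18 (limma adjusted p = 0.272). The other haem enzymes Alad, Uros, Urod and Ppox differed by 0.060, -0.068, -0.028 and -0.068.

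Icam4, an erythroid adhesion molecule of the LW blood group, had the largest difference of the 32 at 10 h. Its levels were 7.05, 7.31, 6.95 and 7.18 in GSI, against 7.87, 7.44, 7.57 and 7.62 in DMSO. Icam4 was lower with GSI in all 4 pairs, as were 8.20% of all genes. The pair differences were -0.82, -0.13, -0.62 and -0.44, and their mean was -0.50 ± 0.19 (limma adjusted p = 0.241). Tspan33, an erythroid tetraspanin, had 6.54, 6.45, 6.25 and 5.72 in GSI and 7.32, 7.14, 6.49 and 5.72 in DMSO. It was lower with GSI in all 4 pairs, by a difference of -0.43 ± 0.13 (limma adjusted p = 0.150), with almost no difference in pair 4. Of the other surface proteins, the Rh proteins Rhag and Rhd differed by -0.17 and -0.13, the anion exchanger Slc4a1 by -0.16, the blood group genes Kel and Ermap by -0.18 and -0.11, and the water channel Aqp1 by -0.089. The membrane skeleton genes for beta-adducin (Add2), ankyrin (Ank1) and beta-spectrin (Sptb) differed by -0.33, -0.26 and -0.19, and Epb42, whose protein ties the anion exchanger to ankyrin, by 0.021. A further Ank1 probe gave -0.065. The carbonic anhydrases Car1 and Car2 differed by -0.19 and 0.12, and Hemgn, a nuclear protein of erythroid cells, by -0.12.

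Embryonic globins varied widely at 10 h, and replicate 1 was high for all 3 in both treatments. Hbb-y, an embryonic beta-like globin, had 7.35, 5.56, 4.96 and 4.92 in GSI, against 8.28, 6.11, 4.63 and 5.52 in DMSO, and differed by -0.44 ± 0.41 (limma adjusted p = 0.674). Hbb-bh1, another beta-like globin of the embryo, had 6.70, 5.23, 4.69 and 4.61 in GSI and 6.21, 4.95, 4.75 and 6.06 in DMSO, a difference of -0.19 ± 0.36 (limma adjusted p = 0.863). The alpha-like Hba-x, which encodes zeta globin, had 5.89, 3.96, 3.48 and 3.52 in GSI and 5.90, 4.60, 3.63 and 3.57 in DMSO, a difference of -0.21 ± 0.38 (limma adjusted p = 0.847). All groups overlapped, and each difference was smaller than the SD of either group. Whether related globin transcripts share signal on these probes was not tested.

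At 4 h the direction of the erythroid genes differed between runs and pairs, and none passed the test. Over all 7 pairs their median difference was -0.14, with an SD of 0.31 between the pair medians. It was 0.14 within run 2, -0.30 within run 3 and -0.042 without pair 4. Trim10 was lower with GSI in every pair. Of the 32, 0 had a limma adjusted p under 0.05, against 1 of all 22180 genes (0.00451%), which was Hes1. An unadjusted p under 0.05 was reached by 3 (Trim10, Kel and Slc4a1), against 4.21% of all genes. The difference was below 0 for 29 of 32, against 45.7% of all genes, whose median was 0.009, but 7 of 32 were below 0 within run 2. The median was -0.017 for the regulators, -0.15 for the receptor and iron uptake genes, -0.13 for the haem enzymes, -0.16 for the surface proteins, -0.092 for the membrane skeleton, 0.017 for the carbonic anhydrases, -0.41 for the embryonic globins and -0.18 for the other 3 genes.

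Trim10, a protein of the TRIM family that mouse erythroblasts need for terminal maturation, ranged over 5.22 to 6.61 (median 5.49) in GSI at 4 h, against 5.41 to 7.55 (median 5.98) in DMSO. The pair differences were -0.49, -0.47, -0.22, -0.91, -0.28, -0.13 and -0.94. It was lower with GSI in all 7 pairs, as were 0.807% of all genes, while 0 erythroid genes were higher in all 7, against 1.01% of all genes. Even so, the ranges of the groups overlapped. The mean difference was -0.49 ± 0.11 (unadjusted p = 2.7e-04, limma adjusted p = 0.420). At 10 h its levels were 5.96, 5.48, 4.52 and 4.62 in GSI and 6.43, 5.66, 4.61 and 4.88 in DMSO, and the difference was -0.25 ± 0.14 (limma adjusted p = 0.439). Trim10 was thus lower with GSI in all 11 pairs of both times, the only member of which this was true, and 0.0992% of all genes were. Its signal lay near the array's median over all measured genes in some arrays. Minus that median, its levels were 1.17, 0.74, -0.16 and -0.11 in GSI at 10 h. In DMSO at 10 h they were 1.66, 0.91, -0.092 and 0.078. At 4 h they were -0.20 to 1.18 (median 0.068) in GSI and 0.011 to 2.13 (median 0.58) in DMSO. Whether these levels stood above background was not tested.

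Among the surface proteins at 4 h, Kel, the Kell blood group protease, ranged over 5.80 to 8.42 (median 7.38) in GSI, against 6.79 to 8.99 (median 7.36) in DMSO. Its difference was -0.40 ± 0.15 (limma adjusted p = 0.999), and it was most negative in pairs 4 to 7 and near 0 in pairs 1 to 3. Slc4a1, the anion exchanger of the red cell, ranged over 6.57 to 9.27 (median 7.72) in GSI and 7.01 to 9.48 (median 8.15) in DMSO. Its difference was -0.39 ± 0.16 (limma adjusted p = 0.999), with -1.48 in pair 4 and 0.11 in pair 3. The other surface proteins Rhag, Icam4, Ermap, Rhd and Aqp1 differed by -0.22, -0.16, -0.14, -0.062 and -0.053.

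Regulators showed no common direction at 4 h. Gata1 differed by -0.051 ± 0.15, Klf1 by -0.099 ± 0.11, Gfi1b by 0.12 ± 0.15 and Zfpm1 by 0.017 ± 0.12. Their pairs went both ways: Gfi1b was 1.05 in pair 3 and -0.79 in pair 6, and Gata1 was 0.70 in pair 1 and -0.89 in pair 6. The 6 haem enzymes had mean differences between -0.16 for Urod and -0.034 for Alad, and 0 of 6 had an unadjusted p under 0.05 in limma. Their mean differences had opposite signs in 2 runs: Alad, Uros, Urod, Cpox, Ppox and Fech had 0.039, 0.31, 0.033, 0.25, 0.11 and 0.33 in run 2, and -0.13, -0.18, -0.25, -0.39, -0.23 and -0.45 in run 3. Pairs of the same run also differed. The median over the 6 enzymes was 0.026 in pair 2 and 0.30 in pair 3 (run 2). It was -0.60, -0.12, -0.089 and -0.33 in pairs 4 to 7 (run 3). In pair 2, Alad, Urod and Ppox were below 0, and in pairs 5 and 6 Alad was above 0. Epor, Tfrc and Slc25a37 differed by -0.21, -0.085 and -0.15. Among the membrane skeleton genes, Epb42, Ank1, Sptb and Add2 differed by -0.19, -0.13 (a further Ank1 probe gave -0.21), -0.056 and -0.029. Hemgn, Tspan33, Car1 and Car2 differed by -0.18, -0.14, 0.087 and -0.053.

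The embryonic globins at 4 h took extreme values in a few arrays. Hbb-bh1 ranged over 5.13 to 7.02 (median 5.57) in GSI, against 4.96 to 8.35 (median 5.32) in DMSO, and its pair differences were -0.28, 0.11, -0.19, -1.20, 0.17, 0.32 and -2.34. The mean was -0.49 ± 0.28 (limma adjusted p = 0.999), with the large values in pairs 4 and 7. Hba-x ranged over 3.70 to 5.58 (median 4.00) in GSI and 3.72 to 6.40 (median 4.02) in DMSO, with pair differences of 0.83, -0.010, -0.029, -1.25, 0.48, -0.23 and -2.63 and a mean of -0.41 ± 0.29 (limma adjusted p = 0.999). Hbb-y ranged over 4.28 to 7.45 (median 5.82) in GSI and 4.83 to 8.90 (median 5.53) in DMSO, and differed by -0.15 ± 0.31 (limma adjusted p = 0.999). In pair 7, where the DMSO array was the highest of its group for all 3 globins, they differed by -2.34, -2.45 and -2.63.

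**Figure D2:**
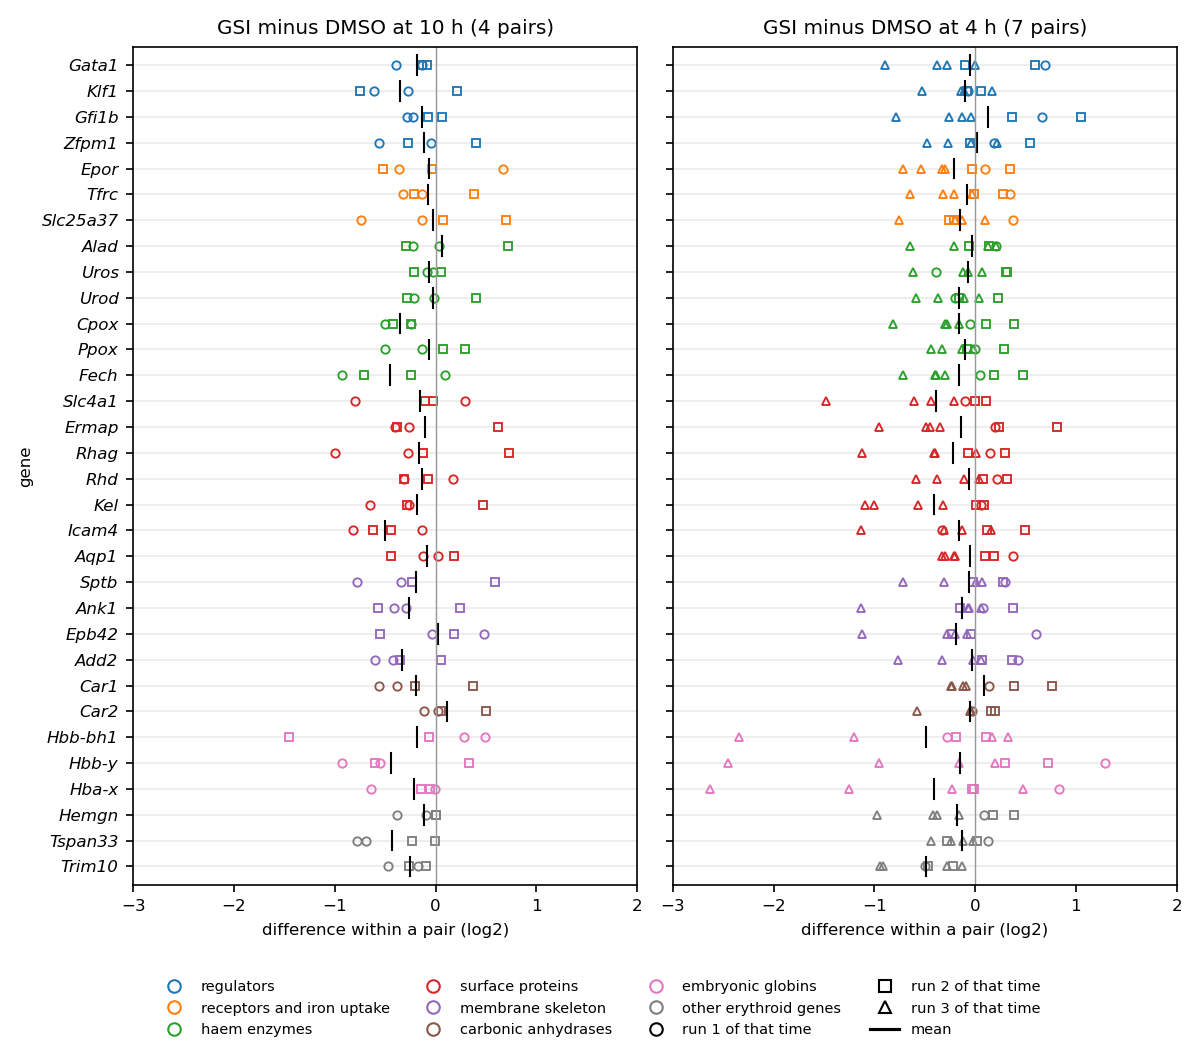
Each row is a gene, and each symbol is the log2 difference GSI minus DMSO in 1 pair, at 10 h (left, 4 pairs) and 4 h (right, 7 pairs), with the shape giving the run and the black line the mean. Most means lie a little below 0 at both times, Trim10 lies below 0 in all 11 pairs, and at 4 h most triangles, which are the pairs of run 3, lie below 0.

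The direction of the erythroid genes depended on the pair. At 10 h, 27 of the 32 were lower with GSI in each of pairs 1, 2 and 3 (medians -0.29, -0.27 and -0.24), and 12 were lower in pair 4 (median 0.12). The genes lower in every pair at 10 h were Gata1, Cpox, Icam4, Hba-x, Tspan33 and Trim10, 6 of 32, against 8.20% of all genes, and 0 were higher in every pair, against 8.47%. At 4 h, 31 were lower in pair 4 (median -0.68), 30 in pair 7 (-0.25), 28 in pair 6 (-0.15) and 21 in pair 5 (-0.13). Only 9 were lower in pair 1 (0.14), 17 in pair 2 (-0.007) and 5 in pair 3 (0.28). The DMSO array of pair 4 did not correlate best with its own GSI partner (r of 0.223 between deviations from the group mean). Codes in the sample descriptions, whose meaning is not stated, put pair 1 in run 1, pairs 2 and 3 in run 2 and pairs 4 to 7 in run 3 of the 4 h arrays. Runs are numbered separately within each time, so run 2 at 4 h and run 2 at 10 h are different runs. Within run 2 the median was 0.14, with 25 of 32 genes above 0, and Gfi1b passed as higher with GSI (0.71, limma adjusted p = 0.0286), as 1 of 32 against 148 of all genes in that run. Within run 3 the median was -0.30 and no gene was above 0. Without pair 4 the median over all runs was -0.042, with 21 of 32 below 0, and without pairs 4 and 7, a choice made after seeing the data, it was 0.012. At 10 h the median was -0.32 within run 1 (pairs 1 and 2) and -0.091 within run 2 (pairs 3 and 4). The Trim10 difference was -0.34 in run 2 and -0.56 in run 3 at 4 h, and -0.32 in run 1 and -0.18 in run 2 at 10 h.

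Markers of other cells moved in some of the same pairs, and their part in the erythroid differences was not tested. In pair 4 at 4 h, where the erythroid median was lowest, the median of 11 megakaryocyte markers was 0.78 and that of 13 hepatocyte markers -0.34. In pair 7 at 4 h the hepatocyte markers had -1.10 and the embryonic globins -2.45. In pair 1 at 4 h, with most erythroid genes higher, 16 OP9 stroma markers had 1.06, 13 macrophage markers 0.76 and the hepatocyte markers 0.56. Hepatocyte and erythroid medians had opposite signs in other pairs. At 10 h they were 0.83 and -0.24 in pair 3, and -0.26 and 0.12 in pair 4. At 4 h they were 0.13 and -0.007 in pair 2, and 0.15 and -0.15 in pair 6. Over all pairs at 10 h, 3 of 9 stem cell markers passed as higher with GSI (Hlf, Mecom and Hoxa9), against 0.555% of all genes, and their list had medians of 0.29 to 0.92 in the 4 pairs. OP9 stroma markers had a median of -0.50 at 10 h, with 2 of 16 lower (Cd248 and Fabp4), against 0.113% of all genes. Per array, their mean was 4.76 to 6.11 in GSI and 5.42 to 6.79 in DMSO at 10 h, and 6.79 to 7.99 in GSI and 6.63 to 8.24 in DMSO at 4 h. The hepatocyte mean was 4.46 to 6.26 in GSI and 4.77 to 5.34 in DMSO at 10 h, and 6.27 to 9.01 in GSI and 5.92 to 9.24 in DMSO at 4 h. Macrophage markers averaged 5.27 to 5.90 in GSI and 5.37 to 6.28 in DMSO at 10 h, and 6.40 to 8.07 in GSI and 6.51 to 8.03 in DMSO at 4 h.

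**Figure D3:**
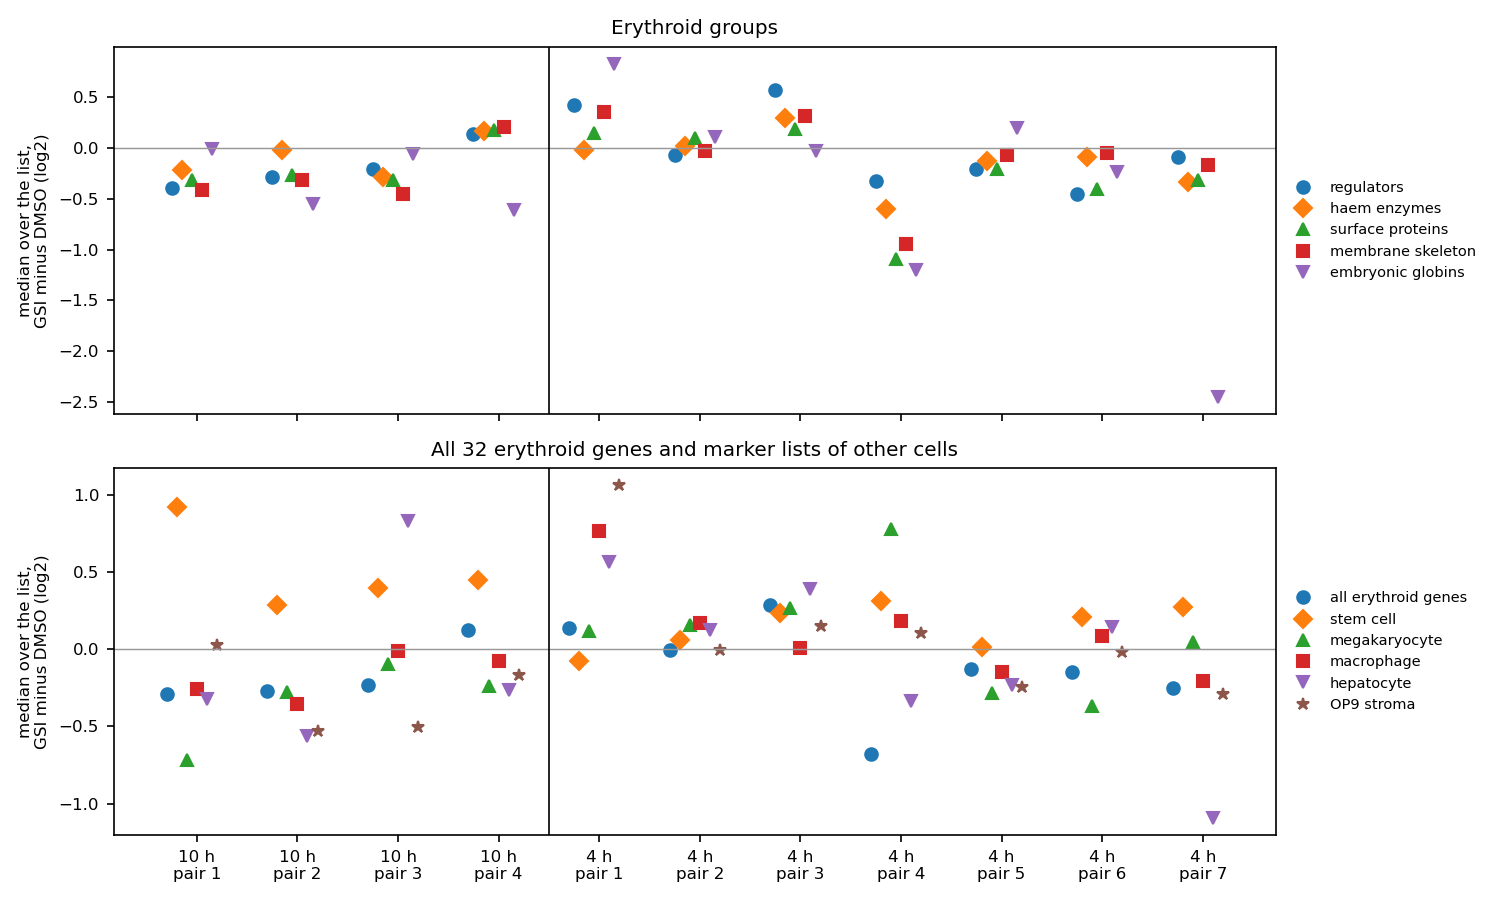
Symbols give, for each pair (x axis), the median log2 difference GSI minus DMSO over a list of genes, for groups of erythroid genes (top) and for all 32 erythroid genes with marker lists of other cells (bottom). Pair 4 at 4 h is the lowest for all 32 erythroid genes, and pair 7 at 4 h for embryonic globins and hepatocyte markers.

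Taking both times as 1 effect, 0 of the 32 erythroid genes passed, against 71 of all genes (0.320%; 0.0541% lower), and the lowest limma adjusted p was 0.0826, for Trim10 (-0.37 ± 0.087, lower in 11 of 11 pairs). Tspan33 followed with -0.28 ± 0.084 (limma adjusted p = 0.172), and Cpox, Icam4 and Fech with -0.25, -0.33 and -0.30. The effect of GSI at 10 h minus that at 4 h passed for 0 of 32, against 4 of all genes (0.0180%), and the lowest limma adjusted p was 0.608, for Tspan33 (-0.29 ± 0.17). Unadjusted p-values under 0.05 numbered 7 of 32 for the mean of both times, against 12.0% of all genes, and 0 of 32 for the difference between times, against 9.36%.

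A wider list of 74 measured erythroid genes, outside the 32, had medians near those of all genes under GSI. At 10 h 0 of 74 passed, 12 had an unadjusted p under 0.05 (14.1% of all genes did) and the median was 0.028. The smallest p were those of Slc25a38, the mitochondrial glycine carrier of haem synthesis (-0.47 ± 0.15, limma adjusted p = 0.151), the potassium channel gene Kcnn4 (-0.32 ± 0.12, limma adjusted p = 0.225) and the glycophorin Gypc (-0.45 ± 0.18, limma adjusted p = 0.259). At 4 h 0 of 74 passed, 2 had an unadjusted p under 0.05 (4.21% of all genes did) and 37 were higher and 37 lower. The smallest p belonged to the theta globin Hbq1a (0.68 ± 0.23), the mitochondrial transporter Abcb10 (-0.28 ± 0.12) and Cd47, a surface signal that protects cells from phagocytosis (0.075 ± 0.042), each with a limma adjusted p of 0.999.

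The comparison of 10 h with 4 h asks how erythroid gene expression changed with time in culture, within GSI and within DMSO. Several erythroid genes were higher at 10 h after centring, with the largest changes in Car1, Rhag and Gata1, and none was lower on that scale, while Aqp1 was lower as deposited. After each array was centred on its median over the 22180 genes, 18 of 32 were higher at 10 h and 0 lower in GSI, and 17 higher and 0 lower in DMSO (limma adjusted p under 0.05). Of all genes, 44.7% were higher and 10.8% lower in GSI, and 42.0% higher and 10.7% lower in DMSO, which is 55.5% in either direction in GSI and 52.7% in DMSO. An unadjusted p under 0.05 was reached by 21 of 32 in GSI, against 61.0% of all genes, and by 18 of 32 in DMSO, against 58.4%. The median change was 0.70 in GSI and 0.74 in DMSO for the erythroid genes, against 0.27 and 0.25 for all genes. Values below stand beside that shift of all genes. No run holds both times and the distributions of the 10 h and 4 h arrays differ, and the effects of time and of run cannot be told apart. The GSI and DMSO comparisons share their runs.

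The count depended on how the arrays were put on a common scale. After quantile normalization 16 of 32 were higher and 0 lower in GSI, against 20.9% and 16.1% of all genes, and 13 higher and 0 lower in DMSO, against 18.8% and 15.3%. After cyclic loess 13 were higher and 0 lower in each treatment, against 16.5% and 18.4% of all genes in GSI and 15.6% and 16.8% in DMSO. On the values as deposited 5 were higher and 1 lower in GSI, against 2.12% and 65.0% of all genes, and 2 higher and 1 lower in DMSO, against 2.09% and 58.1%. The gene lower in both was Aqp1. Their median change as deposited was 0.021 in GSI and 0.081 in DMSO, against -0.42 and -0.41 for all genes. Higher at 10 h in both treatments after centring, quantile and loess were 10 genes: Gata1, Epor, Tfrc, Uros, Cpox, Rhag, Rhd, Ank1, Add2 and Car1, against 11.3% of all genes. Gata1 and Car1 were so also as deposited, against 1.22%.

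**Figure D4:**
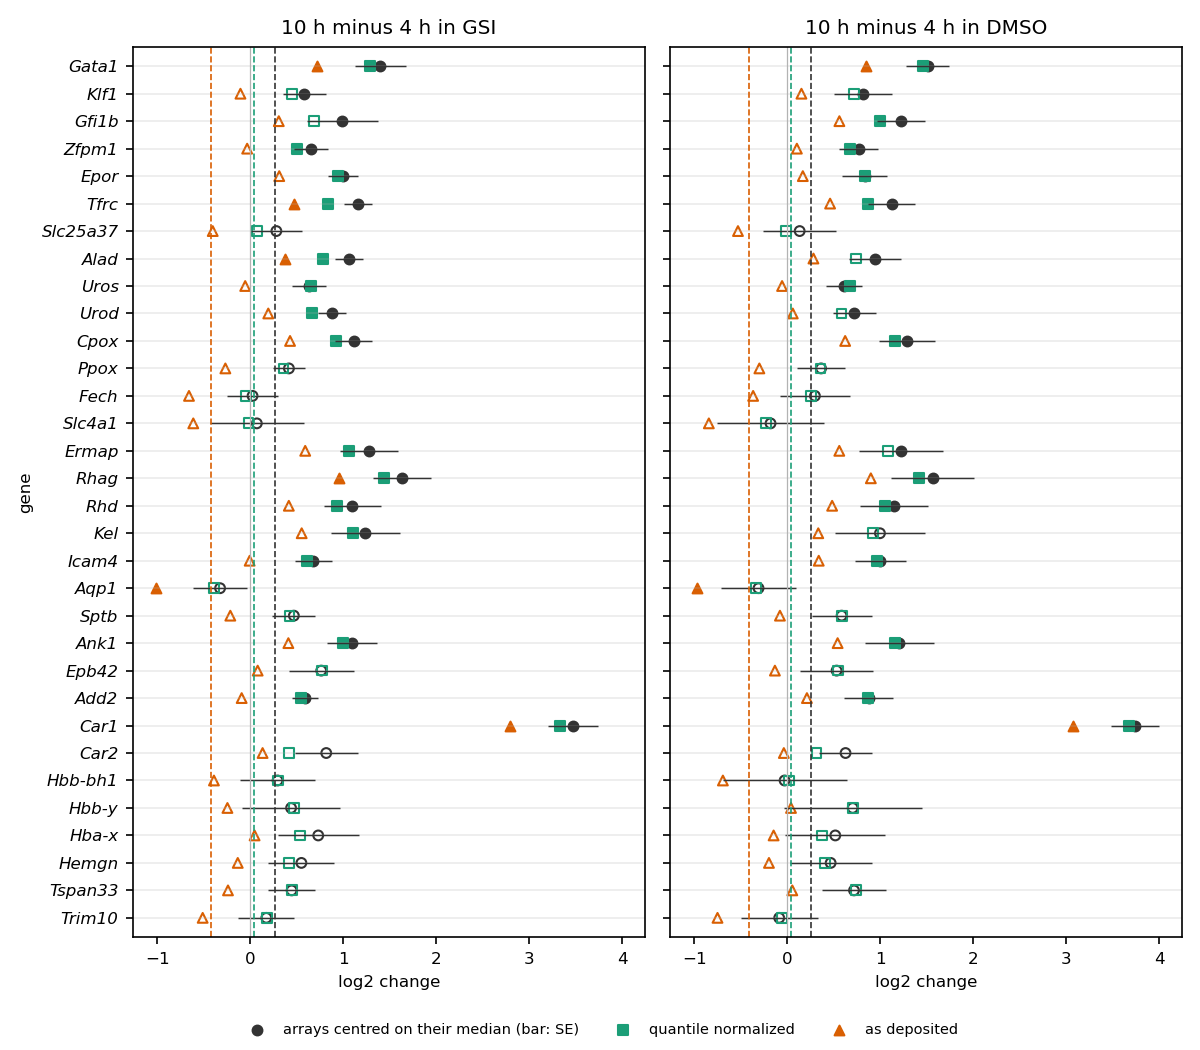
Points give the log2 change, 10 h minus 4 h, of each gene in GSI (left) and DMSO (right) after centring each array on its median (circles, bars are SE), after quantile normalization (squares) and as deposited (triangles), filled where the limma adjusted p was under 0.05. Dashed lines, coloured as the points, give the median of all genes, and Car1 lies far to the right of every other gene on all 3 scales.

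Levels below are log2 values minus the array's median over the 22180 genes. That median lay between 4.67 and 4.81 for arrays of 10 h, and between 5.34 and 5.45 for those of 4 h. On this scale every 10 h array lay above every 4 h array for 30.2% of all genes in GSI and 28.6% in DMSO. All 4 regulators were higher at 10 h after centring in both treatments, against 44.7% of all genes in GSI and 42.0% in DMSO. Gata1 stood at 2.83, 2.83, 3.16 and 2.97 in GSI at 10 h, against 0.38 to 2.10 (median 1.63) in GSI at 4 h. Its DMSO values were 2.98, 3.22, 3.26 and 2.98 at 10 h, against 0.95 to 2.39 (median 1.49) at 4 h. All 10 h arrays were above all 4 h arrays in both treatments, as for 18.4% of all genes, and the change was 1.40 ± 0.27 in GSI (limma adjusted p = 9.1e-04) and 1.51 ± 0.23 in DMSO (limma adjusted p = 1.9e-04). Klf1 stood at 2.70, 2.83, 2.96 and 2.77 in GSI at 10 h, against 1.31 to 2.90 (median 2.20) in GSI at 4 h. For Klf1 in DMSO the values were 3.33, 3.10, 3.69 and 2.49 at 10 h, against 1.41 to 3.15 (median 2.24) at 4 h. The groups overlapped, and the change was 0.58 in GSI and 0.82 in DMSO, lost after quantile normalization in both (0.45 and 0.72) and -0.11 in GSI as deposited. Gfi1b stood at 4.87, 4.77, 4.93 and 4.39 in GSI at 10 h, against 1.91 to 4.47 (median 3.94) in GSI at 4 h. DMSO arrays of Gfi1b had 5.11, 5.05, 4.98 and 4.25 at 10 h, against 2.68 to 4.22 (median 3.71) at 4 h. It separated the times in DMSO, with a change of 1.22, and not in GSI, where the change of 0.99 was lost after quantile normalization (0.68). Zfpm1 stood at 2.68, 3.24, 3.36 and 2.91 in GSI at 10 h, against 2.10 to 2.94 (median 2.37) in GSI at 4 h. In DMSO, Zfpm1 had 3.26, 3.28, 3.60 and 2.43 at 10 h, against 2.02 to 2.64 (median 2.38) at 4 h. Its groups overlapped, and the change was 0.65 in GSI and 0.77 in DMSO, but -0.033 and 0.10 as deposited.

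Of the receptor and iron uptake genes, Epor and Tfrc were higher at 10 h. They are 2 of 3, against 44.7% of all genes in GSI and 42.0% in DMSO. Epor stood at 2.41, 2.25, 2.32 and 1.999 in GSI at 10 h, against 0.72 to 1.62 (median 1.24) in GSI at 4 h. Its DMSO values were 1.76, 2.61, 2.82 and 1.96 at 10 h, against 1.09 to 2.21 (median 1.26) at 4 h. The times did not overlap in GSI and overlapped in DMSO, and the change was 1.00 ± 0.17 in GSI and 0.83 ± 0.25 in DMSO. Tfrc stood at 5.01, 5.06, 5.01 and 4.81 in GSI at 10 h, against 3.25 to 4.20 (median 3.88) in GSI at 4 h. For Tfrc in DMSO the values were 5.36, 5.19, 5.20 and 4.35 at 10 h, against 3.27 to 4.57 (median 3.83) at 4 h. The pattern was the same as for Epor, and the change was 1.16 ± 0.15 in GSI and 1.12 ± 0.25 in DMSO. Slc25a37 had differences of 0.28 in GSI and 0.13 in DMSO that did not pass.

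Among the haem enzymes, Alad, which makes porphobilinogen, and Uros, Urod and Cpox, which carry it on to protoporphyrinogen, were higher at 10 h in both treatments. They are 4 of the 6 measured enzymes, against 44.7% of all genes in GSI and 42.0% in DMSO. Cpox stood at 3.59, 3.61, 3.47 and 3.62 in GSI at 10 h, against 1.76 to 3.11 (median 2.43) in GSI at 4 h. DMSO arrays of Cpox had 4.11, 3.84, 3.86 and 3.79 at 10 h, against 1.91 to 3.62 (median 2.35) at 4 h. All 10 h arrays were above all 4 h arrays within each treatment, as for 30.2% of all genes in GSI and 28.6% in DMSO. The change was 1.11 ± 0.20 in GSI and 1.29 ± 0.30 in DMSO. Alad stood at 4.58, 4.57, 4.44 and 4.36 in GSI at 10 h, against 3.06 to 3.95 (median 3.42) in GSI at 4 h. In DMSO, Alad had 4.83, 4.53, 4.70 and 3.57 at 10 h, against 2.93 to 4.17 (median 3.28) at 4 h. The change was 1.06 in GSI, where the times did not overlap, and 0.94 in DMSO, where they did and where quantile normalization gave an adjusted p of 0.0546 in limma. Urod stood at 3.80, 3.68, 3.70 and 3.66 in GSI at 10 h, against 2.28 to 3.15 (median 2.91) in GSI at 4 h. Its DMSO values were 4.04, 3.69, 3.96 and 3.18 at 10 h, against 2.38 to 3.52 (median 2.87) at 4 h. The times did not overlap in GSI, and the change was 0.88 in GSI and 0.72 in DMSO, of which the DMSO value was lost after quantile normalization (limma adjusted p = 0.0647). Uros stood at 1.50, 1.35, 1.32 and 1.40 in GSI at 10 h, against 0.32 to 1.45 (median 0.76) in GSI at 4 h. For Uros in DMSO the values were 1.61, 1.36, 1.51 and 1.27 at 10 h, against 0.37 to 1.39 (median 0.87) at 4 h. Both treatments overlapped between times, and the change was 0.63 in GSI and 0.61 in DMSO, but -0.054 and -0.056 as deposited. The last enzymes of the chain did not pass: Ppox had 0.42 in GSI and 0.36 in DMSO, and Fech had 0.025 in GSI and 0.30 in DMSO.

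Of the 7 surface proteins, 5 were higher at 10 h in GSI (44.7% of all genes were) and 4 in DMSO (42.0%). Rhag, the Rh-associated glycoprotein, stood at 3.65, 3.85, 4.18 and 3.63 in GSI at 10 h, against 0.87 to 3.09 (median 2.34) in GSI at 4 h. DMSO arrays of Rhag had 4.68, 4.12, 4.28 and 2.83 at 10 h, against 1.26 to 3.55 (median 2.21) at 4 h. The times were apart in GSI and overlapped in DMSO, and the change was 1.64 ± 0.31 in GSI and 1.56 ± 0.45 in DMSO. Rhd stood at 3.59, 3.55, 3.05 and 2.96 in GSI at 10 h, against 1.30 to 3.29 (median 2.07) in GSI at 4 h. In DMSO, Rhd had 3.93, 3.36, 3.34 and 2.96 at 10 h, against 1.60 to 3.41 (median 1.83) at 4 h. The times overlapped in both treatments, and the change was 1.10 ± 0.30 in GSI and 1.15 ± 0.36 in DMSO. Ermap stood at 3.88, 4.17, 3.93 and 3.29 in GSI at 10 h, against 1.18 to 3.14 (median 2.54) in GSI at 4 h. Its DMSO values were 4.17, 4.56, 4.29 and 2.59 at 10 h, against 1.65 to 3.95 (median 2.35) at 4 h. The times were apart in GSI and overlapped in DMSO, and the change was 1.28 in GSI and 1.22 in DMSO, the DMSO value being lost after quantile normalization (limma adjusted p = 0.0754).

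Icam4 stood at 2.26, 2.57, 2.28 and 2.45 in GSI at 10 h, against 1.03 to 2.37 (median 1.71) in GSI at 4 h. For Icam4 in DMSO the values were 3.10, 2.69, 2.87 and 2.81 at 10 h, against 1.16 to 2.68 (median 1.79) at 4 h. The times were apart in DMSO and overlapped in GSI, and the change was 0.68 in GSI and 1.00 in DMSO, but -0.006 and 0.34 as deposited. Kel stood at 3.30, 3.56, 2.82 and 2.49 in GSI at 10 h, against 0.45 to 2.99 (median 1.94) in GSI at 4 h. DMSO arrays of Kel had 3.98, 3.82, 3.07 and 1.95 at 10 h, against 1.44 to 3.56 (median 1.96) at 4 h. Both treatments overlapped, and Kel passed in GSI (1.24, limma adjusted p = 0.0125) and not in DMSO (1.00, limma adjusted p = 0.0962), though the difference between treatments did not pass (0.22 ± 0.25 for the GSI effect at 10 h minus that at 4 h, limma adjusted p = 0.824). Slc4a1 and Aqp1 did not pass after centring, with 0.071 and -0.32 in GSI and -0.18 and -0.31 in DMSO. Aqp1 was lower at 10 h on the values as deposited, by a difference of -1.01 in GSI (limma adjusted p = 0.00683) and -0.97 in DMSO (limma adjusted p = 0.0444). Its deposited levels were 7.20, 7.40, 6.96 and 6.27 in GSI at 10 h and 7.36 to 8.88 (median 7.88) in GSI at 4 h. In DMSO they were 7.32, 7.37, 7.40 and 6.08 at 10 h and 6.98 to 9.18 (median 8.21) at 4 h, and both treatments overlapped between times.

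In the membrane skeleton, Ank1 and Add2 were higher at 10 h and Sptb and Epb42 did not pass. These 2 of 4 stand against 44.7% of all genes in GSI and 42.0% in DMSO. Ank1 stood at 2.66, 2.99, 2.56 and 2.49 in GSI at 10 h, against 0.66 to 2.58 (median 1.50) in GSI at 4 h. In DMSO, Ank1 had 3.10, 3.27, 3.10 and 2.17 at 10 h, against 0.72 to 2.81 (median 1.60) at 4 h. The times overlapped in both treatments, and the change was 1.09 ± 0.27 in GSI and 1.20 ± 0.37 in DMSO, with 1.47 and 1.31 at a further Ank1 probe. Add2 stood at 2.15, 2.10, 2.24 and 1.85 in GSI at 10 h, against 1.10 to 1.81 (median 1.52) in GSI at 4 h. Its DMSO values were 2.60, 2.69, 2.57 and 1.72 at 10 h, against 1.11 to 2.19 (median 1.43) at 4 h. The times were apart in GSI, and the change was 0.59 in GSI and 0.87 in DMSO, but -0.092 and 0.21 as deposited. Sptb had 0.47 in GSI and 0.58 in DMSO, and Epb42 had 0.76 in GSI and 0.53 in DMSO.

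Car1, an erythroid carbonic anhydrase that hydrates carbon dioxide, had the largest change with time of the 32 genes. Car1 stood at 3.54, 2.97, 3.66 and 3.64 in GSI at 10 h, against -0.76 to 0.86 (median -0.092) in GSI at 4 h. For Car1 in DMSO the values were 4.12, 3.35, 3.84 and 3.20 at 10 h, against -0.58 to 0.63 (median -0.16) at 4 h. On the deposited scale its levels were 8.33, 7.71, 8.33 and 8.37 in GSI at 10 h and 4.58 to 6.30 (median 5.32) in GSI at 4 h, and 8.89, 8.09, 8.54 and 8.01 in DMSO at 10 h and 4.81 to 6.04 (median 5.28) in DMSO at 4 h. Every 10 h array was above every 4 h array even as deposited, which held in both treatments for 0.338% of all genes and for no other erythroid gene. Within GSI it also held for Gata1 (2 of 32, against 1.08% of all genes) and within DMSO for Car1 alone (1 of 32, against 0.893%). The reverse held for 0 of 32, against 46.4% of all genes in GSI and 39.5% in DMSO. The change after centring was 3.47 ± 0.27 in GSI (limma adjusted p = 3.4e-06) and 3.73 ± 0.26 in DMSO (limma adjusted p = 3.3e-06). As deposited it was 2.79 in GSI and 3.07 in DMSO, and no fold is given because its 4 h levels lay near the array medians. Car2, the more widespread enzyme of the same reaction, did not pass, with 0.82 in GSI (limma adjusted p = 0.0564) and 0.63 in DMSO (limma adjusted p = 0.0781).

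Embryonic globins did not pass in either treatment. Hbb-bh1, Hbb-y and Hba-x had differences of 0.29 ± 0.41, 0.44 ± 0.53 and 0.73 ± 0.44 in GSI, and of -0.029 ± 0.67, 0.70 ± 0.74 and 0.52 ± 0.54 in DMSO. Hemgn, Tspan33 and Trim10 had 0.55, 0.45 and 0.17 in GSI and 0.47, 0.72 and -0.087 in DMSO, and none passed. Every 10 h array lay above every 4 h array after centring for 11 of 32 genes in GSI, against 30.2% of all genes, and for 5 of 32 in DMSO, against 28.6%. In GSI these were Gata1, Epor, Tfrc, Alad, Urod, Cpox, Ermap, Rhag, Add2, Car1 and Car2, and in DMSO Gata1, Gfi1b, Cpox, Icam4 and Car1. No gene lay below throughout in either treatment, against 6.24% of all genes in GSI and 5.37% in DMSO, or over all arrays, against 2.80%.

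**Figure D5:**
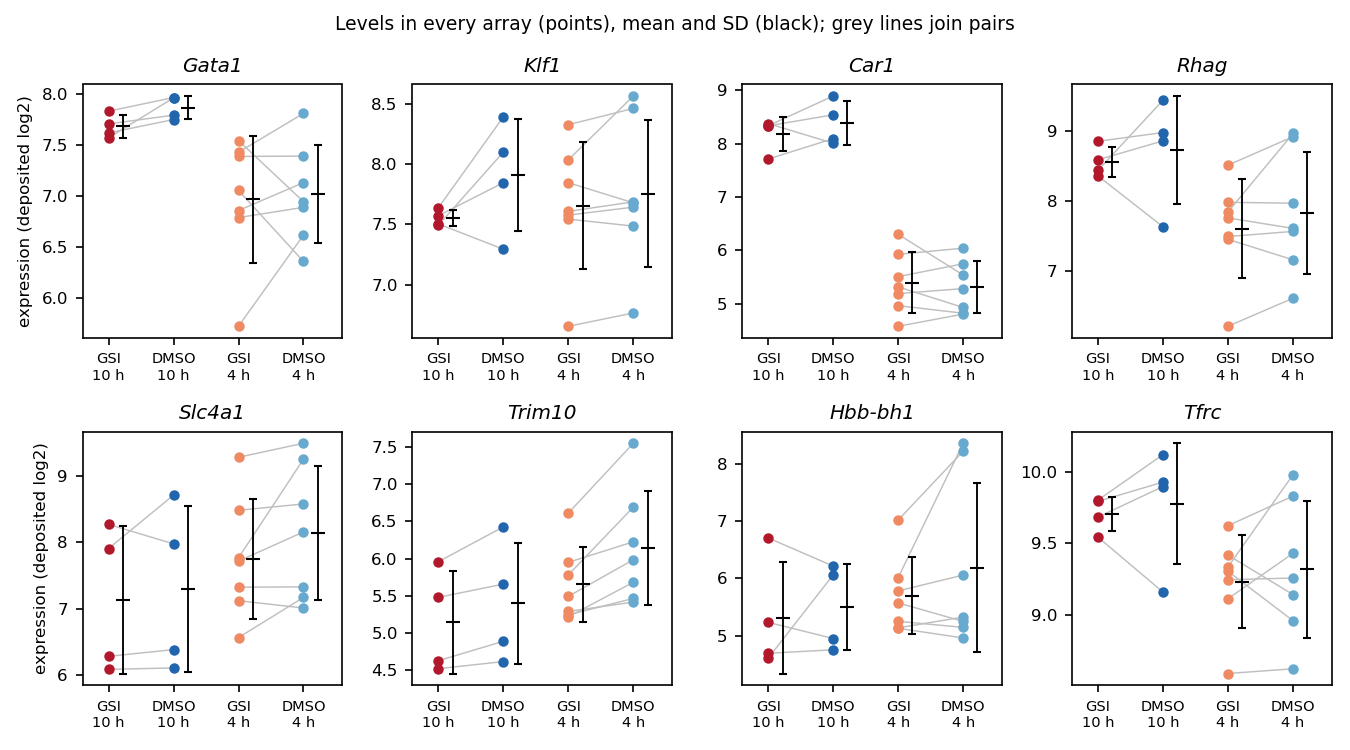
Points give the deposited log2 level of 8 erythroid genes in every array, by group (GSI then DMSO at 10 h, GSI then DMSO at 4 h), with the mean and SD in black and grey lines joining pairs. Car1 is the gene whose 10 h arrays all stand above its 4 h arrays, and Trim10 is lower in GSI at the end of every line.

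In the wider list, 28 of 74 genes were higher and 4 lower at 10 h in GSI, and 25 higher and 5 lower in DMSO, with medians of 0.32 and 0.29. The share that passed upward was below that of all genes in both treatments. The largest rises were those of Mfsd2b, which exports sphingosine phosphate from red cells (1.73 ± 0.37 in GSI and 1.74 ± 0.29 in DMSO), and Nxpe2 (1.36 ± 0.28 in GSI and 1.56 ± 0.38 in DMSO), followed by the progenitor factor Myb in GSI (1.28 ± 0.46, lost after quantile normalization with a limma adjusted p of 0.187) and the urea transporter Slc14a1 in DMSO (1.25 ± 0.27). The largest falls were those of Hmox1, the haem-degrading oxygenase (-2.67 ± 0.42 in GSI and -2.41 ± 0.48 in DMSO), Btg2, an antiproliferative gene (-1.91 ± 0.22 in GSI and -2.07 ± 0.38 in DMSO), and Bach1, a repressor that haem inactivates (-1.32 ± 0.29 in GSI and -1.07 ± 0.29 in DMSO). Markers of other cells changed over the same interval: 7 of 13 hepatocyte markers were lower in GSI and 9 in DMSO (medians -1.91 and -1.99), 11 of 16 OP9 stroma markers in GSI and 4 in DMSO (-1.28 and -0.59), and 6 of 13 macrophage markers in GSI and 4 in DMSO (-0.95 and -0.46), against 10.8% of all genes lower in GSI and 10.7% in DMSO. A macrophage marker was higher in each treatment (1 of 13). Of 6 mast cell markers, 4 were higher in GSI and 5 in DMSO (0.64 and 0.63), against 44.7% and 42.0% of all genes. Of 11 megakaryocyte markers, 1 was higher and 3 lower in each treatment, and of 9 stem cell markers 2 were higher and 1 lower in GSI, and 2 higher and 2 lower in DMSO. Their part in the erythroid changes was not tested.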

How the data were processed

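The deposited table holds log2 expression values of 22 arrays, for which the submitters' processing notes name Partek 6.6 and RMA. Whether the arrays of both times were normalized together, and the genome build of the array design, are not given in the sources used here. Of 41345 probes, 23521 had 1 gene symbol, 1814 several and 16010 none listed, and the single-symbol probe with the highest mean was kept per gene, for 22180 genes (1082 with several such probes). No symbol changed when identifiers were looked up in a GRCm38.p6 gene table. No dim gene was removed. No pair of arrays shared more than 48 identical values, and the highest correlation between arrays was 0.988.

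Tests used limma 3.58.1 in R 4.3.3 (lmFit, eBayes with trend, 2-sided), with Benjamini-Hochberg adjustment over 22180 genes and a threshold of 0.05. GSI effects came from 1 fit of all 22 arrays with the pair as a fixed block. Time was tested on 11 arrays per treatment after centring each array on its median. The series' design text speaks of biological replicates, each with its own DMSO and GSI culture, and the pairs were taken from it. Deviations from the group mean correlated between partners with r of 0.213 to 0.449 at 10 h (best with the own partner for 4 of 4 pairs) and 0.223 to 0.872 at 4 h (6 of 7, the exception being pair 4, with r of 0.223). The fit was tested on simulated data. Alternatives were other normalizations, spreads, probe rules, runs as a block, single runs and each pair left out.

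The members, the wider erythroid list and the marker lists were chosen with earlier results of these data known. Values in every array are given for members that passed in any comparison, the 3 largest GSI effects at each time and the embryonic globins. Of the wider list, genes that passed with GSI or else the 3 smallest p at each time, and the 3 largest rises and falls with time, are named, and Hes1 checks the inhibitor.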

Additional observations from a re-analysis of the deposited data

Results flagged for a closer look

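In 11 of 128 sets of a gene and a group, 1 array lay further from the others than Dixon's critical value allows, where chance alone gives about 1 in 20. In GSI at 4 h, replicate 6 was the lowest array for Gata1 (5.72, against 6.79 in the nearest array), Gfi1b (7.25, against 9.03 in the nearest array), Ermap (6.52, against 7.94 in the nearest array) and Car2 (8.61, against 10.29 in the nearest array). Hba-x was highest in replicate 1 of the same group (5.58, against 4.28 in the nearest array). Hbb-y was highest in replicate 7 of DMSO at 4 h (8.90, against 6.48 in the nearest array). In GSI at 10 h, Cpox was lowest in replicate 3 (8.14, against 8.35 in the nearest array), Car1 was lowest in replicate 2 (7.71, against 8.33 in the nearest array) and Car2 was highest in replicate 1 (10.62, against 10.48 in the nearest array). In DMSO at 10 h, Cpox was highest in replicate 1 (8.88, against 8.60 in the nearest array) and Aqp1 was lowest in replicate 4 (6.08, against 7.32 in the nearest array). All are deposited log2 levels.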

How the results depend on the processing

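Without the replicate block, 0 erythroid genes passed at 10 h and 0 at 4 h, with the same medians of -0.16 and -0.14, which says nothing of erythroid genes, since 0 passed with the block too. With the pair as a random replicate block in a fit of all arrays, 18 passed over time in GSI and 19 in DMSO, against 18 and 17. Of all genes, 0 passed without the block at 10 h, against 148 with it, 0 at 4 h, against 1, and 2 for the mean of both times, against 71. The 148 at 10 h became 36 after quantile normalization, 64 after cyclic loess, 2 in a fit of the 10 h arrays alone, 285 among the brighter genes, 48 without pair 1 and 27 without pair 4, with 0 erythroid genes in each. Leaving out each pair in turn, 0 passed with GSI at 10 h, at 4 h, for the mean of both times and for their difference. The median over the 32 genes was then -0.26 to -0.11 at 10 h and -0.18 to -0.042 at 4 h. Within run 2 at 4 h 1 gene passed, Gfi1b. For time, leaving out each replicate gave 16 to 22 genes in GSI (medians 0.63 to 0.77) and 11 to 19 in DMSO (0.64 to 0.97), with the 11 in DMSO reached without replicate 1 at 10 h. On the values as deposited 6 genes passed in GSI (median 0.021) and 3 in DMSO (median 0.081). There Klf1 had -0.11, Zfpm1 -0.033, Uros -0.054, Icam4 -0.006 and Add2 -0.092 in GSI, and Uros -0.056 in DMSO, against rises after centring. The construction of that alternative, which keeps the offset between the medians of the 10 h and 4 h arrays, lowers every change alike.

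Dim probes could not be bounded, since detection calls were not used here. With the run as a random block, 16 erythroid genes passed over time in each treatment. In the main fits, p-values for GSI measure the spread between pairs, pooled over both times. Those for time measure the spread between arrays of a treatment within each time.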
